A study of Homo sapiens with 18 samples.

Results

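The genes described here are 33 genes of cholesterol synthesis, uptake, storage and efflux, of 58870 genes in the table. They were chosen by function, with earlier results of these data known. They comprised 19 enzymes of synthesis, 3 genes of sterol sensing, 5 of uptake and intracellular transport, 2 of storage as esters, and 4 of efflux with its nuclear receptors. All 33 had enough counts to be tested. RNA was sequenced from the NCI-H295R line, which derives from a human adrenocortical carcinoma and secretes steroids. Untreated cells formed the control group. Single agents were the HSP90 inhibitor STA9090 (ganetespib), the PI3K inhibitor PIK75 and the combined PI3K and mTOR inhibitor BGT226, and 2 groups received STA9090 together with PIK75 (STA9090+PIK75) or with BGT226 (STA9090+BGT226). The stated exposure was 20 nM for 48 h. All groups were the same single line in culture with 3 biological replicates each, 18 libraries in total. The sources used here give neither the dose of each agent in a mixture nor a vehicle.

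Cells build cholesterol from acetyl-CoA through mevalonate, squalene and lanosterol. When sterols in the endoplasmic reticulum run low, SCAP carries the precursor of the transcription factor SREBP2, the product of SREBF2, to the Golgi for cleavage, and the factor then induces enzymes of synthesis and genes of uptake. INSIG1 holds the complex back when sterols are plentiful, while oxysterols activate the LXR receptors, which induce the exporters ABCA1 and ABCG1. In the adrenal cortex cholesterol is the substrate of all steroid hormones and is stored as esters in lipid droplets.

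Promoter motifs tied to this control were searched for in promoters, because the enzymes of synthesis are described below as a group. RefSeq promoter windows (build GRCh38.p14, 250 bases before to 50 after a start) matched 29 of the 33 genes. Only the first listed window of each gene was searched. Some genes had further windows, such as IDI1 with 3 listed, and these may hold matches not counted here. The letters CCAAT, the box bound by NF-Y, stood on either strand in 20 of 29 promoters of the whole set (69%). They stood in 12 of 16 promoters of synthesis (75%), 2 of 3 of sterol sensing and 4 of 5 of uptake and transport (80%). Storage had them in 2 of 2 and efflux in 0 of 3. The same letters stood in 34.6% of all 35116 promoters and in 37.1% of the first promoters of 10181 tested protein-coding genes. A sterol regulatory element core written TCACNCCAC, searched on both strands, stood in 1 of the 29 promoters, that of SREBF2, against 1.13% of all promoters. The exact letters AGGTCA repeated 4 bases apart, a form of the LXR site, stood in none of the 29. They stood in 0.0199% of all promoters and in 0 of the 10181, so this string was too rare to tell promoters apart. Variant forms of either element were not searched for, so a window without a match may still hold an element. The following stretches lie before the RefSeq start and outside annotated exons of GENCODE 29, and belong to the 4 synthesis genes with at least 2 CCAAT boxes there and the largest falls with BGT226. Capitals mark CCAAT or its reverse complement ATTGG, and in NSDHL the last pair of boxes overlap.
MVD (chr16:88663162-88663297, minus strand): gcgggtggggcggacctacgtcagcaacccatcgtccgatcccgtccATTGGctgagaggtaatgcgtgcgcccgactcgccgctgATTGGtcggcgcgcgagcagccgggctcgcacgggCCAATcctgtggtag
MSMO1 (chr4:165327419-165327622, plus strand): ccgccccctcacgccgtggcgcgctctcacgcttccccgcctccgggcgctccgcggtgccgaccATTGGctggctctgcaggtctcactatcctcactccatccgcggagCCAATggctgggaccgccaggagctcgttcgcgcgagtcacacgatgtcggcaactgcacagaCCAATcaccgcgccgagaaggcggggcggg
DHCR7 (chr11:71448436-71448643, minus strand): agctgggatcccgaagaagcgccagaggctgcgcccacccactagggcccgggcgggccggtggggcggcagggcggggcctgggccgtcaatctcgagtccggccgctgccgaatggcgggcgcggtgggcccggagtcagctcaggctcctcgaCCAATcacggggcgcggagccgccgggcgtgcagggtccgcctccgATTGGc
NSDHL (chrX:152830813-152830966, plus strand): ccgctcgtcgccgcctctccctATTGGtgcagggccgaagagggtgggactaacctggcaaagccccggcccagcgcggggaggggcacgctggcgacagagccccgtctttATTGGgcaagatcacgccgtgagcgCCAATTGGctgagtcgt
The boxes began 159, 120 and 85 bases before the start in MVD, 185, 139 and 76 in MSMO1, 94 and 48 in DHCR7, and 228, 138, 113 and 110 in NSDHL. IDI1, CYP51A1 and LBR also fell with BGT226 but held no box in the window searched, while TMEM97 held 3 and was not called. Whether the boxes relate to the falls was not tested. A match is a description of letters and not of binding.

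The only match to that sterol element core in these windows lay before SREBF2 itself, 133 bases upstream of its start. A CCAAT box began 106 bases upstream. The stretch lies within an exon of the antisense gene SREBF2-AS1, and capitals mark both motifs.
SREBF2 (chr22:41832942-41833010, plus strand): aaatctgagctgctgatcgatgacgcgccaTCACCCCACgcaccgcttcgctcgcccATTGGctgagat

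Expected counts per library summed to 10.2 to 21.1 M, of which 4 transcripts of RNA polymerase III took 28.6 to 40.3%. Levels are given as CPM, counts scaled to a common library size with TMM factors, so they are relative to the rest of the library. In these bulk samples, fewer cells of a type and less RNA per cell cannot be told apart. All 7 adrenocortical markers were measured, led by NR5A1 at a mean of 514 CPM. Their summed level ran from 1490 to 1760 CPM in untreated cells, 1480 to 1870 with STA9090, 987 to 1110 with PIK75 and 1130 to 1190 with BGT226. It ran from 753 to 785 with STA9090+PIK75 and 1250 to 1320 with STA9090+BGT226. The sum was lower with every treatment that held a PI3K inhibitor, but not all markers followed it. HSD3B2 had means of 49.9 CPM in untreated cells, 63.5 with BGT226 and 105 with STA9090+BGT226, and MC2R 4.73, 6.41 and 6.56. The same treatments moved the cholesterol genes, and the part of the marker level in this was not tested. Of 6 fibroblast markers 1 was tested and the sum was at most 11.4 CPM, the 5 endothelial markers summed to at most 0.315 CPM with CDH5 at 0, and the 7 leukocyte markers to at most 3.02 CPM with CD3E at 0. Across all genes, STA9090 replicate 1 and PIK75 replicate 3 stood apart from their groups on the third principal component. Without PIK75 replicate 3, 10 rather than 12 of the 33 genes were lower with PIK75, and 1251 rather than 1607 of all genes. This was not particular to that library. Over the single libraries left out the count ran from 8 to 11, and it was 8 without untreated replicate 2. Without STA9090 replicate 1, 1 gene rather than 0 was higher with STA9090, the LXR receptor gene NR1H3.

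In untreated cells levels were compared between genes per length. Per kilobase of exon, DHCR7, the reductase of the last step, stood highest at 87.3 CPM (libraries 80.3 to 99.8), followed by FDPS, farnesyl diphosphate synthase, at 75.8 (72.6 to 78.8). HMGCS1, which makes HMG-CoA, and SCAP both stood at 58.8 (54 to 63.6 and 55 to 66.1), so the order of these 2 could not be told. EBP, a sterol isomerase, followed at 51.2 CPM per kilobase (47.3 to 57.7) and its range overlapped those of HMGCS1 and SCAP. At the low end stood NR1H3 at 0.399 (0.355 to 0.468), ABCG1 at 0.469 (0.343 to 0.608), ABCA1 at 0.601 (0.548 to 0.68) and TM7SF2, a sterol reductase, at 0.827 (0.734 to 0.954). The ranges of NR1H3, ABCG1 and ABCA1 overlapped between neighbours. Counts summed over the 18 libraries ran from 638 to 79906 per gene, and 4 genes were under 1100.

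Several of these genes share sequence or position with others, and the sources used here do not give the annotation or strand used for counting. ACAT2 (chr6:159760328-159779055, plus strand) overlaps SOD2 and TCP1 on the opposite strand, NR1H3 (chr11:47248300-47269032, plus strand) overlaps ACP2, and TM7SF2 (chr11:65111845-65116384, plus strand) shares its strand with VPS51. FDPS (chr1:155308748-155320666, plus strand) has 8 pseudogenes of its name, CYP51A1 has 3, and HSD17B7 and TMEM97 have 2 each. Their values are uncertain to that extent. Positions are those of GENCODE 29 on GRCh38.

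Among the single agents, BGT226 gave the lowest levels of the synthesis genes. The summed level of the 19 synthesis genes was 2190 ± 121 CPM in untreated cells, 2270 ± 83.2 with STA9090, 1710 ± 47.9 with PIK75 and 1030 ± 10.5 with BGT226 (SD, n = 3). With BGT226, 16 of the 19 fell and none rose, with a median log2 fold change of -0.96, whereas the median of all tested genes was 0.01. Among the 33 genes 21 were lower and 2 higher, against 15.7% of all genes lower, 12.8% higher and 28.6% called in either direction. The largest falls were those of ACAT2, MVD, FDPS, LSS and EBP, at log2 fold changes of -1.62, -1.52, -1.54, -1.4 and -1.32. Calls are those of edgeR's quasi-likelihood test with Benjamini-Hochberg adjusted p under 0.05.

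**Figure D1:**
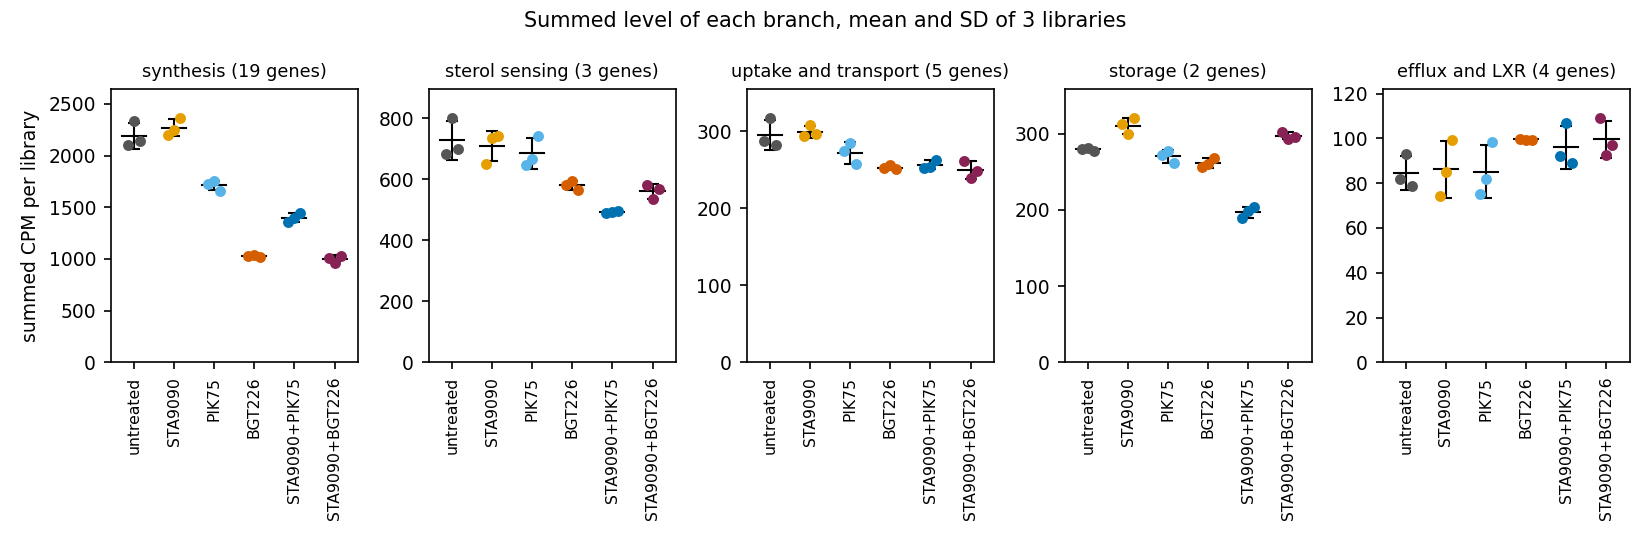
Summed CPM of each branch of the pathway (vertical axes from 0) in the 6 groups (horizontal axes). Points are libraries, and bars are the mean and SD of 3. Synthesis stood at 1020 to 1040 CPM with BGT226 against 2100 to 2330 in untreated cells, and storage was lowest with STA9090+PIK75 at 189 to 203 CPM.

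Along the mevalonate steps, 6 of 7 genes fell with BGT226. ACAT2 encodes the cytosolic thiolase that joins acetyl-CoA units. It read 92.5, 83.4 and 83.6 CPM in the 3 untreated libraries, 77, 74.6 and 61 with PIK75, and 30.3, 27.6 and 26.9 with BGT226. The BGT226 libraries lay far below all others of the single agents, and the log2 fold change was -1.62 ± 0.0822 (SE, adjusted p = 5.63e-11). HMGCS1 read 276, 254 and 299 CPM in untreated cells and 135, 129 and 133 with BGT226, a log2 fold change of -1.06 ± 0.0937 (adjusted p = 8.28e-08). MVK and MVD, which phosphorylate and decarboxylate mevalonate intermediates, changed by -1 and -1.52, and IDI1, the isopentenyl diphosphate isomerase, by -0.94. FDPS read 283, 293 and 270 CPM in untreated cells, 188, 192 and 185 with PIK75 and 97.9, 100 and 93.9 with BGT226. These 3 groups did not overlap, and BGT226 lowered FDPS 2.9-fold (log2 fold change -1.54 ± 0.0818, adjusted p = 8.57e-11). PMVK, the kinase between MVK and MVD, stood at 10.4, 10 and 8.29 CPM in untreated cells and 9.36, 8.05 and 8.12 with BGT226, which overlapped (adjusted p = 0.438).

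The 3 genes of the squalene steps all fell with BGT226. FDFT1, squalene synthase, changed by -0.96 ± 0.0778 on the log2 scale and LSS, which closes squalene epoxide into lanosterol, by -1.4 ± 0.0972. LSS read 265, 325 and 289 CPM in untreated cells and 105, 120 and 108 with BGT226, with no overlap. SQLE, the epoxidase, fell least, by 0.31 (adjusted p = 0.0107). Its call ended without untreated replicate 1 or BGT226 replicate 1 (adjusted p of 0.0628 and 0.0524).

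After lanosterol, 7 of 9 genes fell with BGT226. EBP read 117, 139 and 114 CPM in untreated cells and 49.6, 52.1 and 47.3 with BGT226, and the groups were far apart (log2 fold change -1.32 ± 0.0912, adjusted p = 3.88e-09). MSMO1, the sterol methyl oxidase, changed by -1.04 and DHCR7 by -1.03, while NSDHL and HSD17B7, which complete the removal of the methyl groups, changed by -0.73 and -0.71. CYP51A1, the lanosterol demethylase, changed by -0.53 and LBR, a reductase that is also an inner nuclear membrane protein, by -0.4. SC5D, a desaturase, read 20.6, 22.9 and 24.9 CPM in untreated cells and 21, 17.1 and 19.6 with BGT226 and did not pass the test (adjusted p = 0.154). TM7SF2, which carries out the same reduction as LBR, had a log2 fold change of 0.36 with an adjusted p of 0.269.

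**Figure D2:**
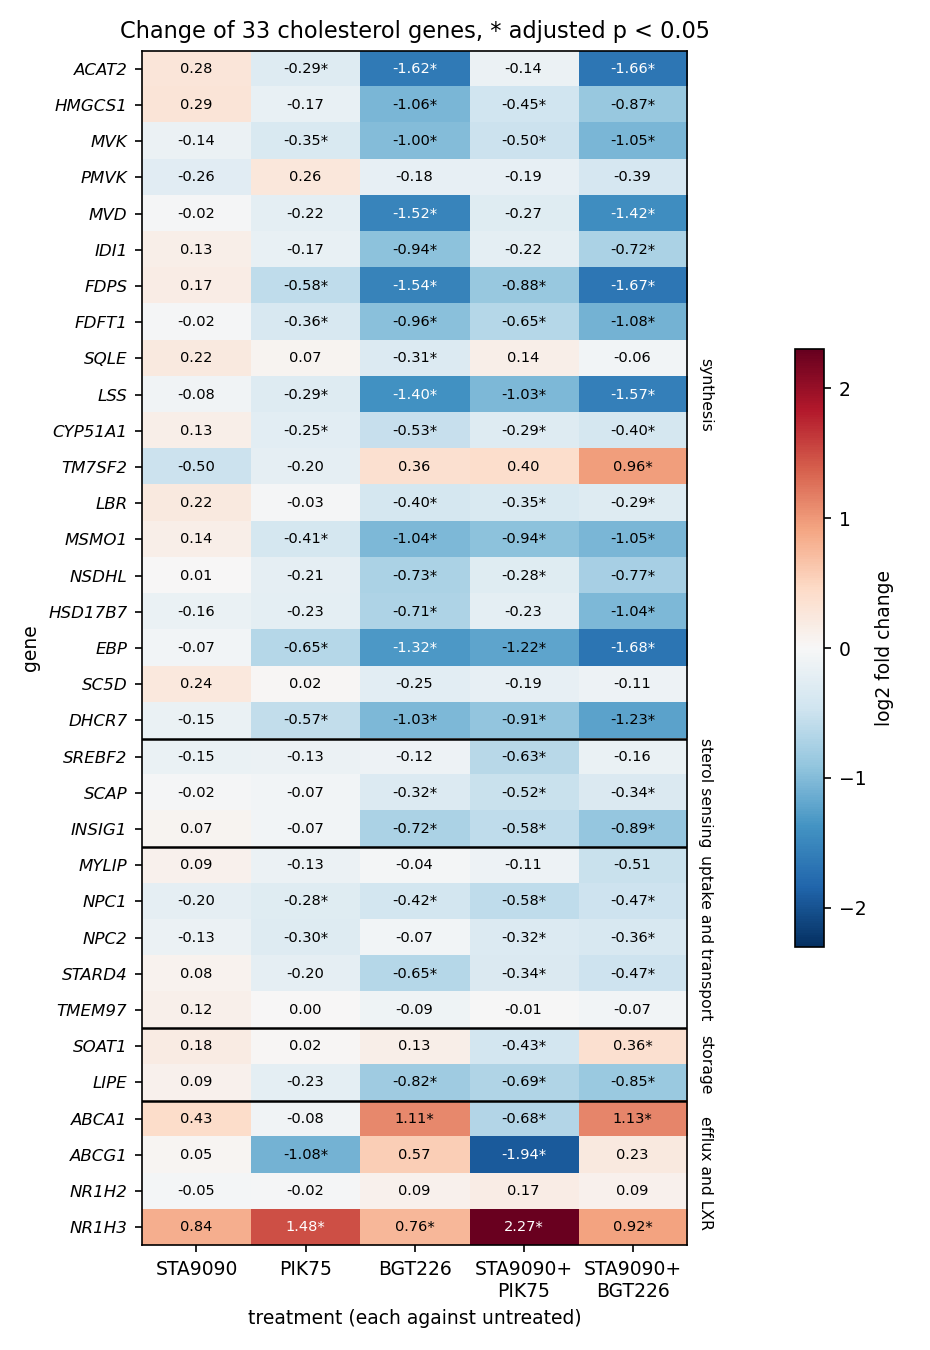
Log2 fold change of each of the 33 genes (rows, by branch) in each treatment against untreated cells (columns), as fitted from 3 libraries a group, with an asterisk where the adjusted p was under 0.05. The BGT226 and STA9090+BGT226 columns are blue over most of synthesis, down to -1.68 for EBP, and NR1H3 reaches 2.27 with STA9090+PIK75.

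PIK75 lowered the same branch less. Of 19 synthesis genes 9 fell and none rose, with a median log2 fold change of -0.23. In all, 12 of the 33 genes were lower and 1 higher, against 10.2% of all genes lower, 8.49% higher and 18.7% called in either direction. The falls of EBP (77.6, 81.6 and 77.3 CPM, log2 fold change -0.65 ± 0.0891, adjusted p = 3.47e-05), FDPS (-0.58 ± 0.0799, adjusted p = 3.51e-05), DHCR7 (-0.57 ± 0.0983, adjusted p = 0.000324) and FDFT1 (-0.36 ± 0.077, adjusted p = 0.00215) held with each library left out in turn. The other 5 calls in synthesis rested on single libraries. ACAT2 was lost without untreated replicate 1 or PIK75 replicate 3 (adjusted p of 0.0719 and 0.0752), MVK without untreated replicate 2 (0.0752), and MSMO1 without untreated replicate 2 or PIK75 replicate 3 (0.0601 to 0.0725). LSS was lost without untreated replicates 2 or 3 or PIK75 replicates 1 or 2 (adjusted p from 0.0607 to 0.145), and CYP51A1 without untreated replicates 1 or 3 or PIK75 replicate 3 (0.0504 to 0.099). A fit of these groups alone also ended ACAT2, LSS and CYP51A1 (adjusted p of 0.0784, 0.118 and 0.0897).

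STA9090 alone moved none of the 33 genes past the threshold, where 2.84% of all genes were called, 1.16% higher and 1.68% lower. At an unadjusted p under 0.05 there were 8 higher and 1 lower, a level at which all genes were not counted. DESeq2 called 2 higher and 0 lower, where it called 230 higher and 393 lower among all genes. The nearest were ACAT2, at 105, 107 and 103 CPM against 92.5, 83.4 and 83.6 in untreated cells (log2 fold change 0.28 ± 0.0765, adjusted p = 0.0524), and NR1H3 (0.84 ± 0.244, adjusted p = 0.0639). The ACAT2 groups did not overlap, and its adjusted p was 0.049 with a stricter filter and 0.0205 with DESeq2.

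Sterol sensing was tested through 3 genes. INSIG1, itself a target of SREBP2, fell with BGT226 and with both combinations. It read 141, 152 and 147 CPM in untreated cells, 158, 164 and 139 with STA9090, 131, 149 and 141 with PIK75, and 96.2, 85.2 and 86.6 with BGT226. With STA9090+PIK75 it read 93.2, 97.2 and 105 CPM and with STA9090+BGT226 76.7, 78.9 and 82.6. These last 3 groups lay below every untreated library, with log2 fold changes of -0.72, -0.58 and -0.89 (adjusted p of 1.25e-06, 7.68e-06 and 4.38e-08).

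SREBF2 followed another pattern. It read 187, 223 and 197 CPM in untreated cells, 192, 186 and 183 with BGT226 and 190, 172 and 181 with STA9090+BGT226. Summed synthesis was lowest in both of these treated groups, whose ranges overlapped. Neither change of SREBF2 passed the test (log2 fold changes -0.12 and -0.16, adjusted p of 0.263 and 0.0934). With STA9090+PIK75 it read 126, 131 and 134 CPM and fell past the threshold (log2 fold change -0.63 ± 0.0758, adjusted p = 1.6e-06). The STA9090+BGT226 change was called by DESeq2 (-0.18, adjusted p = 0.0377) and without untreated replicate 1 (-0.23, adjusted p = 0.0329). SCAP changed by -0.32 with BGT226, -0.52 with STA9090+PIK75 and -0.34 with STA9090+BGT226. The first of these was lost without untreated replicate 2 or BGT226 replicates 1 or 3 (adjusted p from 0.1 to 0.152), and the last without untreated replicate 2 or STA9090+BGT226 replicate 2 (0.0628 to 0.0942).

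For uptake and intracellular transport, NPC1, which exports cholesterol from lysosomes, fell with PIK75, BGT226 and both combinations. It read 69.7, 67.3 and 68.8 CPM in untreated cells, 62.1, 61.5 and 55.8 with STA9090, 55.3, 59.3 and 54.4 with PIK75, 48.8, 53.7 and 51.4 with BGT226, 45.4, 44.4 and 48 with STA9090+PIK75 and 53.7, 48.8 and 46 with STA9090+BGT226. All treated libraries lay below the untreated ones. The log2 fold changes were -0.28, -0.42, -0.58 and -0.47 for the 4 calls, and -0.2 with STA9090 alone, which did not pass the test after adjustment (unadjusted p = 0.00942, adjusted p = 0.12). Its lysosomal partner NPC2 fell with PIK75 (-0.3) and with both combinations (-0.32 and -0.36), and the PIK75 call was lost without untreated replicate 2 or PIK75 replicate 3 (adjusted p of 0.113 and 0.0844) and in a fit of these groups alone (0.0849). STARD4, a carrier of sterols through the cytosol, read 37.2, 38.2 and 45.1 CPM in untreated cells and 27.1, 25.4 and 24.5 with BGT226, a log2 fold change of -0.65 ± 0.11 (adjusted p = 0.000185). It changed by -0.47 with STA9090+BGT226 and by -0.34 with STA9090+PIK75, and the latter call was lost without untreated replicate 3 or STA9090+PIK75 replicates 1 or 3 (adjusted p from 0.0518 to 0.0903). TMEM97, a membrane protein that binds NPC1, ranged from 128 to 172 CPM in all libraries, and its 95% interval for BGT226 against PIK75 was -0.28 to 0.1. MYLIP, a ubiquitin ligase that marks lipoprotein receptors for degradation, was not called in any comparison with untreated cells in the reported fit. With STA9090+BGT226 it was called lower under RLE scaling (log2 fold change -0.53, adjusted p = 0.0466) and with the 50 most counted genes left out (-0.52, 0.0456). The same held without STA9090+BGT226 replicate 2 (-0.64, adjusted p = 0.038).

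Of the 2 storage genes, SOAT1 separated the combinations and LIPE fell with both. SOAT1, which esterifies cholesterol for lipid droplets, read 199, 189 and 192 CPM in untreated cells, 136, 143 and 152 with STA9090+PIK75 and 250, 250 and 247 with STA9090+BGT226. The first combination lay below and the second above every untreated library (log2 fold changes -0.43 ± 0.0783 and 0.36 ± 0.0779, adjusted p of 0.00021 and 0.000921). With the single agents SOAT1 was not called, at 234, 208 and 213 CPM with STA9090, 204, 212 and 174 with PIK75 and 209, 211 and 217 with BGT226. LIPE, the hormone-sensitive lipase that frees cholesterol from esters, read 81.5, 92.3 and 84.9 CPM in untreated cells and 46.2, 49.6 and 51 with BGT226. It fell with BGT226, STA9090+PIK75 and STA9090+BGT226 by 0.82, 0.69 and 0.85 on the log2 scale (adjusted p of 1.57e-05, 5.06e-05 and 5.38e-06).

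In efflux, ABCA1 rose with BGT226 alone and in combination, and ABCG1 fell with PIK75 alone and in combination. ABCA1, which exports cholesterol to lipid-poor apolipoproteins, read 7.72, 6.22 and 6.51 CPM in untreated cells, 7.89, 6.14 and 5.24 with PIK75 and 14.6, 14.5 and 14.9 with BGT226. With STA9090+PIK75 it read 3.75, 3.9 and 5.03 CPM and with STA9090+BGT226 16.5, 13.6 and 14.7. It rose 2.16-fold with BGT226 and 2.19-fold with STA9090+BGT226 (adjusted p of 1.14e-05 and 4.42e-06), and fell 1.6-fold with STA9090+PIK75 (adjusted p = 0.00362). ABCG1, which exports cholesterol to lipoprotein particles, read 2.8, 2.1 and 3.72 CPM in untreated cells, 1.25, 1.5 and 1.27 with PIK75 and 0.893, 0.736 and 0.592 with STA9090+PIK75. These were falls of 2.11-fold and 3.84-fold (adjusted p of 0.00786 and 3.85e-05), in a gene with few counts. With BGT226 ABCG1 stood at 3.75, 4.23 and 4.54 CPM, a log2 fold change of 0.57 with an adjusted p of 0.0638.

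The receptor gene NR1H3, which encodes LXR alpha, did not follow the exporters. It read 2.12, 1.69 and 1.61 CPM in untreated cells, 4.64, 5.75 and 4.82 with PIK75, 3.06, 2.23 and 3.71 with BGT226, 9.55, 8.68 and 8.07 with STA9090+PIK75 and 4.07, 2.94 and 3.31 with STA9090+BGT226. Its level was highest in the group in which ABCA1 and ABCG1 were lowest, 4.82-fold above untreated cells (log2 fold change 2.27 ± 0.217, adjusted p = 8.05e-08). The other rises had log2 fold changes of 1.48, 0.76 and 0.92 with PIK75, BGT226 and STA9090+BGT226. The BGT226 call was lost without untreated replicates 2 or 3 or BGT226 replicate 3 (adjusted p from 0.0735 to 0.196). NR1H2, which encodes LXR beta, ran from 59.3 to 94.1 CPM and was called in none of the comparisons.

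**Figure D3:**
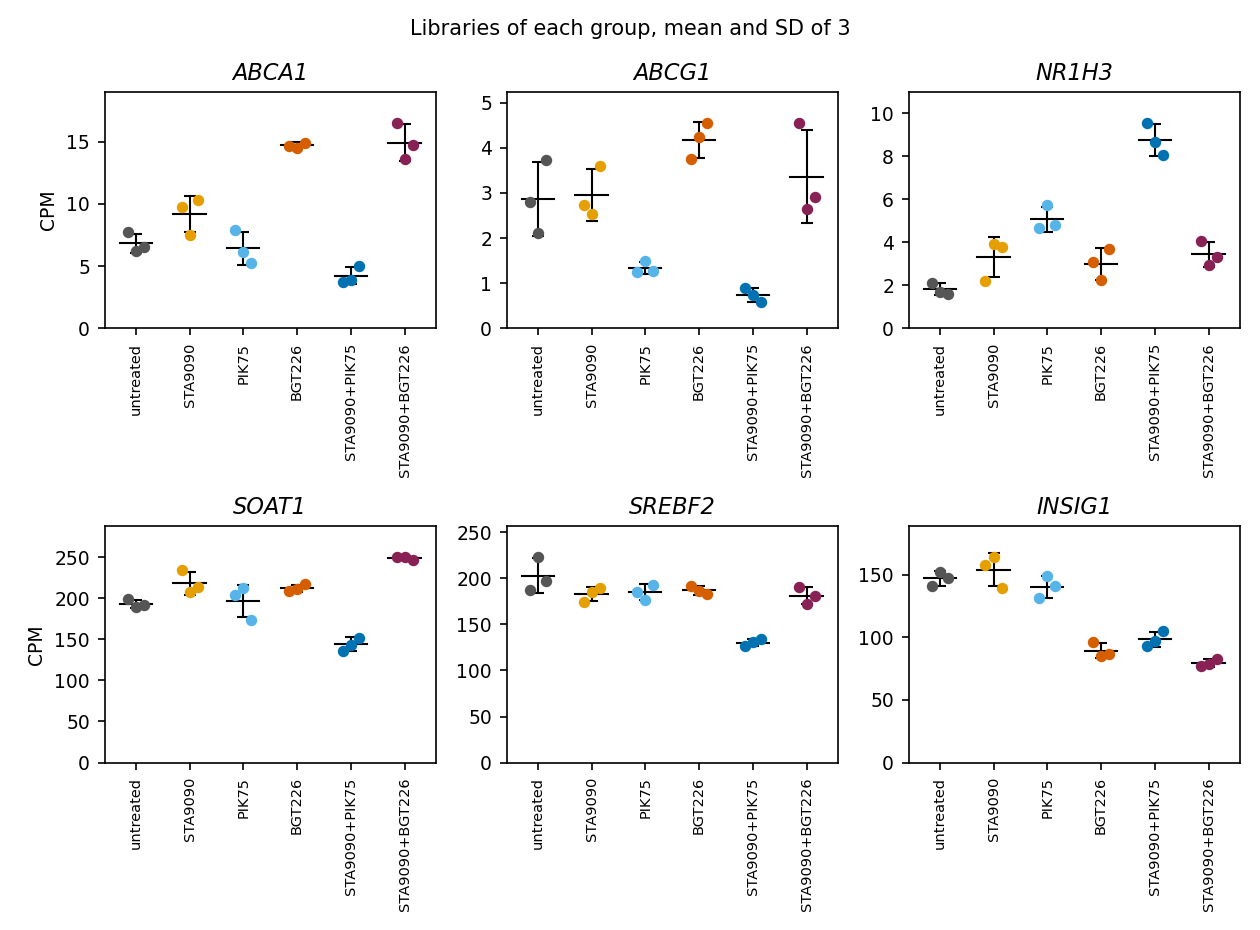
CPM (vertical axes from 0) of ABCA1, ABCG1, NR1H3, SOAT1, SREBF2 and INSIG1 in the 18 libraries by group (horizontal axes). Points are libraries, and bars are the mean and SD of 3. With STA9090+PIK75, ABCA1, ABCG1, SOAT1 and SREBF2 lie below the untreated libraries and NR1H3 lies above them at 8.07 to 9.55 CPM.

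Each combination was then set against untreated cells. With STA9090+PIK75, 21 of the 33 genes were lower and 1 higher, against 20.1% of all genes lower, 18.3% higher and 38.4% called in either direction. The summed synthesis level was 1400 ± 38.6 CPM (SD, n = 3), and 11 of 19 enzymes fell, led by EBP at -1.22, LSS at -1.03 and MSMO1 at -0.94. ACAT2 and MVD, among the largest falls with BGT226, were not called here (80.3, 78.1 and 77.8 CPM for ACAT2, adjusted p = 0.174, and 67.3, 63.1 and 54 CPM for MVD, adjusted p = 0.0889). The call of LBR was lost without STA9090+PIK75 replicate 1 (adjusted p = 0.0586) and that of NSDHL without untreated replicate 2 (adjusted p = 0.0677).

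With STA9090+BGT226, 21 of the 33 genes were lower and 4 higher, against 20.4% of all genes lower, 19.4% higher and 39.8% called in either direction. Summed synthesis was 1000 ± 32.8 CPM, and 15 of 19 enzymes fell, led by EBP at -1.68, FDPS at -1.67 and ACAT2 at -1.66. FDPS read 92, 80.4 and 94.1 CPM in this group. TM7SF2 rose, from 3.25, 2.5 and 2.71 CPM in untreated cells to 6.3, 5.43 and 4.85, against the direction of the other called enzymes (log2 fold change 0.96 ± 0.223, adjusted p = 0.00184). The call of LBR was lost without untreated replicates 2 or 3 or STA9090+BGT226 replicate 2 (adjusted p from 0.0592 to 0.0801). Comparisons with untreated cells share the same 3 control libraries.

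The direct comparison of BGT226 with PIK75 asks where the 2 inhibitors differ at the same stated dose and time. BGT226 gave lower levels of 17 of 19 synthesis genes, with a median log2 difference of -0.6. Of the 33 genes 21 were lower and 2 higher, against 16.5% of all genes lower, 15.5% higher and 32% called in either direction. Among the synthesis genes the widest gaps were ACAT2 at -1.33 (95% interval from the fitted SE, -1.51 to -1.15), MVD at -1.31 (-1.59 to -1.02), LSS at -1.11 (-1.32 to -0.9) and FDPS at -0.96 (-1.13 to -0.78). ABCA1 and ABCG1 were higher with BGT226, by 1.19 (0.86 to 1.51) and 1.65 (1.09 to 2.2), and NR1H3 was lower by a log2 difference of -0.72 (-1.17 to -0.26). INSIG1 was lower by -0.65 (-0.82 to -0.48). SREBF2 and SOAT1 did not pass the test, with intervals of -0.15 to 0.18 and -0.06 to 0.28. The NR1H3 call was lost without PIK75 replicate 2 or BGT226 replicate 2 (adjusted p of 0.0581 and 0.0675), and that of PMVK (-0.44) without PIK75 replicates 1 or 3 or BGT226 replicates 2 or 3 (0.0599 to 0.193).

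With STA9090 present in both, the BGT226 mixture was lower than the PIK75 mixture in 12 of 19 synthesis genes and higher in 1. Of the 33 genes 14 were lower and 5 higher, against 20.9% of all genes lower, 22.4% higher and 43.3% called in either direction. ACAT2 differed by -1.52, MVD by -1.15 and HSD17B7 by -0.81, while ABCG1, ABCA1, SOAT1 and SREBF2 were higher by 2.17, 1.81, 0.8 and 0.47. NR1H3 differed by -1.35 (adjusted p = 1.14e-05). The higher level of TM7SF2 (0.56) was lost without STA9090+PIK75 replicates 1 or 3 or STA9090+BGT226 replicates 1 or 2 (adjusted p from 0.0734 to 0.136) and with DESeq2 (0.0701), and the lower level of DHCR7 (-0.32) without STA9090+BGT226 replicate 2 (0.0871).

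**Figure D4:**
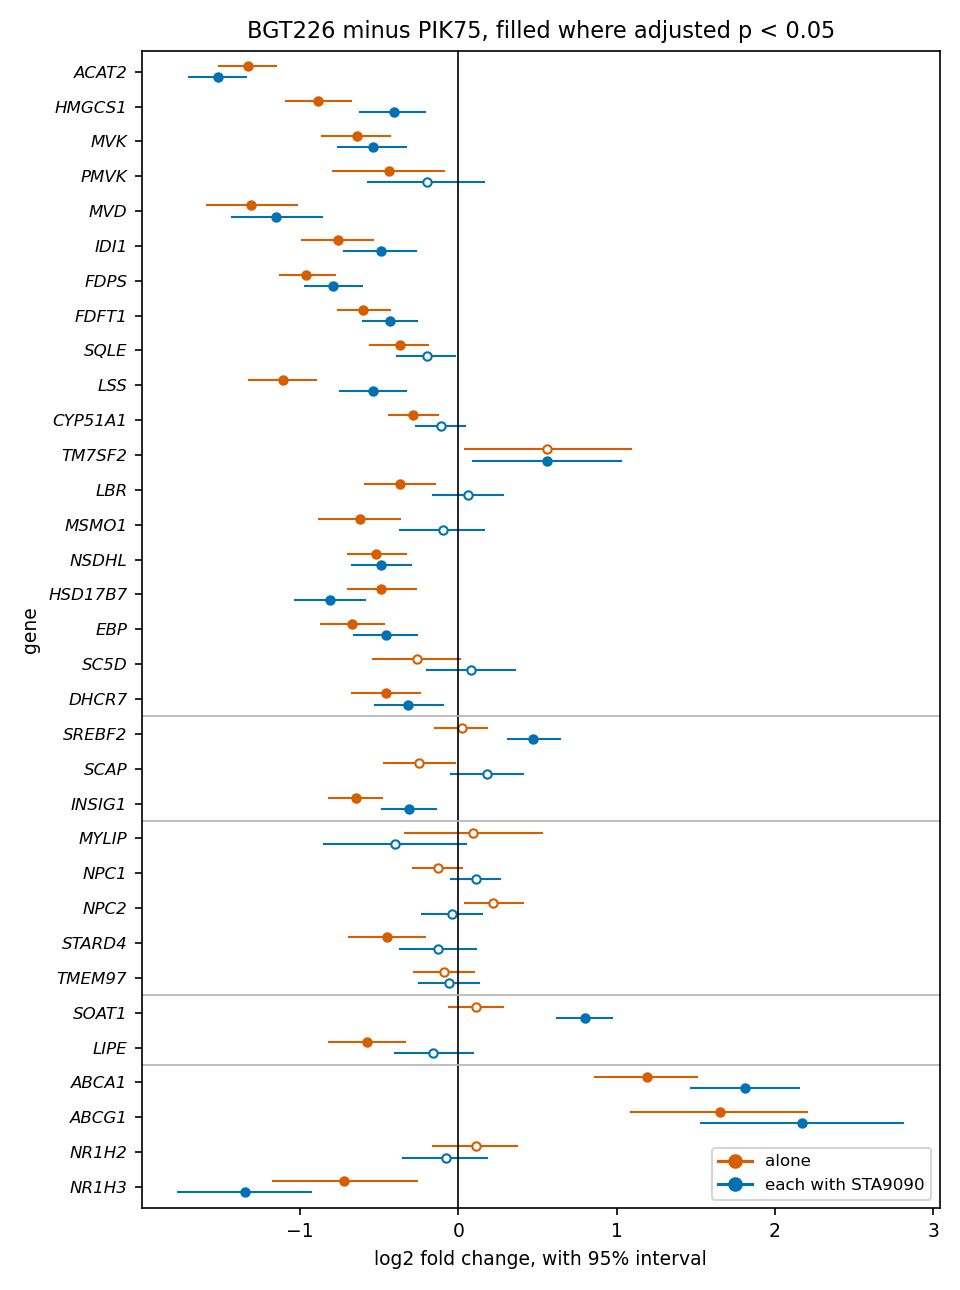
Log2 difference between BGT226 and PIK75 (horizontal axis, 0 meaning equal) for each gene (vertical axis), alone in orange and each with STA9090 in blue. Points are fitted values from 3 libraries a group, filled where the adjusted p was under 0.05, and lines are 95% intervals. Most synthesis genes lie left of 0, and ABCA1 and ABCG1 lie right of it at 1.19 and 1.65 alone.

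Adding STA9090 to PIK75 changed the pathway further. Against PIK75 alone, 16 of the 33 genes were lower and 1 higher, where 14% of all genes were lower, 11.3% higher and 25.3% called in either direction. LSS fell from 227, 225 and 266 CPM to 134, 148 and 151, the largest change in synthesis (log2 fold change -0.73 ± 0.0959, adjusted p = 1.16e-05). EBP changed by -0.57 and MSMO1 by -0.53. All 3 genes of sterol sensing fell, INSIG1 by 0.51, SREBF2 by 0.5 and SCAP by 0.45, and so did both storage genes, SOAT1 by 0.45 and LIPE by 0.46. NR1H3 rose by 0.79 (adjusted p = 0.00388).

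Of those 17 calls, 6 rested on single libraries. FDPS (-0.29) was lost without STA9090+PIK75 replicate 2 (adjusted p = 0.0505), and HMGCS1 (-0.28) without PIK75 replicates 1 or 2 or STA9090+PIK75 replicates 1 or 2 (0.0673 to 0.155). LBR (-0.32) and DHCR7 (-0.34) were each lost without PIK75 replicates 1 or 2 or STA9090+PIK75 replicate 1 (adjusted p of 0.0951 to 0.129 and 0.0532 to 0.0844). ABCA1 (-0.6) was lost without PIK75 replicate 1 or STA9090+PIK75 replicates 1 or 2 (0.0586 to 0.111). PMVK (-0.45) was lost without any one of PIK75 replicates 1 and 3 or the STA9090+PIK75 libraries (0.0577 to 0.213). A fit of these groups alone ended HMGCS1 and LBR (adjusted p of 0.0691 and 0.0593).

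Adding STA9090 to BGT226 left nearly all of the 33 genes uncalled. EBP alone was lower, from 49.6, 52.1 and 47.3 CPM to 35.7, 39.2 and 40.8 (log2 fold change -0.36 ± 0.0937, adjusted p = 0.0444), where 2.69% of all genes were called, 1.7% lower and 0.988% higher. That call was lost without any one of the 6 libraries compared (adjusted p from 0.0566 to 0.187). None was higher by edgeR, although 5 were higher and 5 lower at an unadjusted p under 0.05, a level at which all genes were not counted. DESeq2 called 1 higher and 2 lower, where it called 154 higher and 428 lower among all genes.

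The interaction of STA9090 with each inhibitor was then tested, that is, whether the step on adding STA9090 differed from its step in untreated cells. With PIK75 it was negative and called for 11 of the 33 genes, and positive for none, against 5.73% of all genes negative, 3.54% positive and 9.27% called in either direction. These were HMGCS1, FDPS, LSS, LBR, MSMO1 and EBP in synthesis, SREBF2 and INSIG1 in sensing, SOAT1 and LIPE in storage, and ABCA1. SOAT1 is an example, with a step of 0.18 ± 0.0779 in untreated cells and -0.45 ± 0.0783 with PIK75, a difference of -0.63 ± 0.11 (adjusted p = 0.00124). For ABCA1 the steps were 0.43 and -0.6 and the difference was -1.03 ± 0.231 (adjusted p = 0.00739). In 7 of the 11, HMGCS1, FDPS, LSS, MSMO1, INSIG1, SOAT1 and ABCA1, the call held with each library left out. At an unadjusted p under 0.05, a level at which all genes were not counted, 15 genes were negative and 1 positive. The positive gene was TM7SF2 (difference 1.11, adjusted p = 0.0542).

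With BGT226 the interaction was called for none of the 33, where 0.00633% of all genes were called. At an unadjusted p under 0.05 there were 1 higher and 5 lower, and again all genes were not counted at that level. DESeq2 called 0 of the 33, where it called 35 of all genes. A direct test of the STA9090 step with PIK75 against that with BGT226 was not made.

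**Figure D5:**
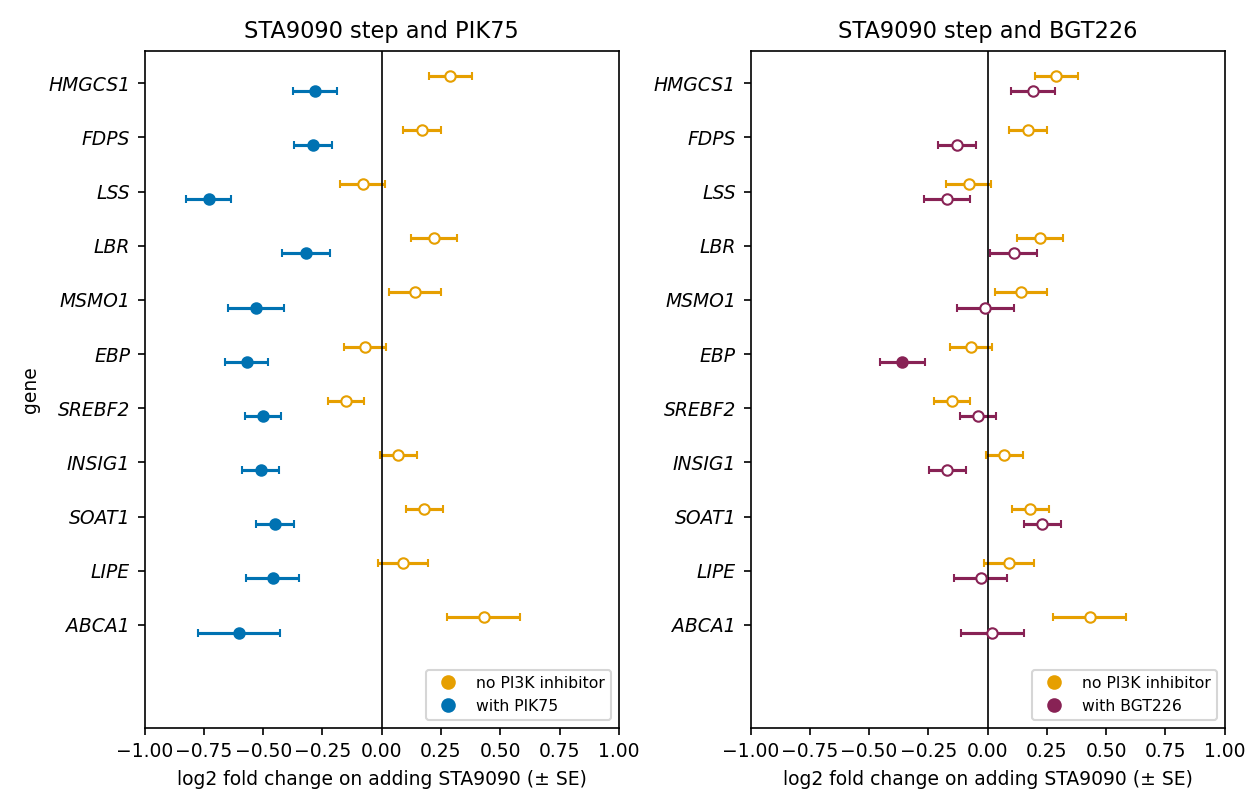
Log2 fold change on adding STA9090 (horizontal axes, points with SE from 3 libraries a group) for the 11 genes whose step differed with PIK75 (vertical axes). The left panel shows PIK75 and the right panel BGT226, each beside the step in cells with no PI3K inhibitor, and filled points passed the test. With PIK75 all 11 steps are negative, -0.73 for LSS, and with BGT226 only EBP is filled. The 11 were picked by a called negative interaction with PIK75 in these same data, which favours negative steps in the left panel. The contrast between the panels was not tested.

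Other genes of the same biology were taken from a list of 65, of which 58 were tested. With STA9090 1 was higher and 1 lower (3.45% called, against 2.84% of all genes), and with PIK75 2 and 13 (25.9% against 18.7%). With BGT226 6 were higher and 13 lower (32.8% against 28.6%), with STA9090+PIK75 7 and 24 (53.4% against 38.4%), and with STA9090+BGT226 9 and 18 (46.6% against 39.8%). SREBF1, the related factor of fatty acid synthesis, fell with all treatments but STA9090 alone. It read 85.6, 101 and 105 CPM in untreated cells, 65.3, 61.4 and 77.7 with PIK75, 62.4, 60.1 and 57.3 with BGT226, 43.7, 49.2 and 49.5 with STA9090+PIK75 and 50.8, 45.9 and 53.4 with STA9090+BGT226. Its log2 fold changes were -0.51, -0.7, -1.03 and -0.95 (adjusted p of 0.000735, 1.77e-05, 6.56e-08 and 2.3e-07).

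Of 10 tested genes of the isoprenoid branch, which draws on the product of FDPS, BGT226 called 1 higher and none lower. That gene was FNTA, the alpha subunit of protein farnesyltransferase, at 32.7, 30.2 and 32.5 CPM against 27.2, 22.2 and 25.1 in untreated cells (log2 fold change 0.36, adjusted p = 0.042). The call was lost without untreated replicates 2 or 3 or any one BGT226 library (adjusted p of 0.17, 0.0857, 0.103, 0.0592 and 0.115). Of 15 genes of sterol transport, BGT226 called 2 higher and 4 lower. LIPA, the lysosomal lipase that hydrolyses cholesteryl esters, read 22.9, 23 and 21.2 CPM in untreated cells and 14.5, 13.2 and 15 with BGT226 (log2 fold change -0.65, adjusted p = 0.000217). VLDLR, a lipoprotein receptor, changed by -0.36 with BGT226 and by -0.48 with STA9090+PIK75. Of 8 tested genes of esters and lipid droplets, BGT226 called 0 higher and 1 lower (12.5%, against 28.6% of all genes). PIK75 called 1 higher and 2 lower (37.5%, against 18.7%). NCEH1, a cholesteryl ester hydrolase, fell with both. It read 15.3, 15.4 and 15.8 CPM in untreated cells and 9.81, 7.48 and 7.19 with PIK75 (log2 fold change -0.92, adjusted p = 1.48e-05). With STA9090+PIK75 it read 8.48, 9.2 and 9.62 CPM, which overlapped PIK75 alone. With BGT226 it read 11.4, 12.8 and 12.5 CPM (log2 fold change -0.33). That call was lost with DESeq2 (adjusted p = 0.0504) and without untreated replicates 2 or 3 or BGT226 replicates 1 or 3 (0.0597 to 0.095). Among 8 further genes of efflux and oxysterols, BGT226 called 0 higher and 2 lower. LPCAT3, a phospholipid enzyme known as an LXR target, read 30.6, 31.2 and 32.6 CPM in untreated cells and 24.4, 23.9 and 22.4 with BGT226 (log2 fold change -0.42, adjusted p = 2e-04). It read 18.5, 18.3 and 18.8 CPM with STA9090+BGT226, and ABCA1 rose in both of these groups. LPCAT3 stood as low with PIK75 (24, 23.5 and 23.6 CPM), where ABCA1 was not called. It was lowest with STA9090+PIK75 (15.7, 14.2 and 16.4 CPM), where ABCA1 fell too.

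Of 7 tested genes of steroid formation (enzymes, electron carriers and the factor NR5A1), 4 were lower with PIK75, 4 with BGT226, 7 with STA9090+PIK75 and 4 with STA9090+BGT226. In the same comparisons 10.2%, 15.7%, 20.1% and 20.4% of all genes were lower. Most of the 7, among them NR5A1, STAR, CYP17A1 and HSD3B2, were also adrenocortical markers above. These falls are therefore not a separate observation from the lower marker sum. BGT226 and STA9090+BGT226 each had 1 of the 7 higher, HSD3B2, and the BGT226 call (log2 fold change 0.34) was lost without untreated replicates 1 or 3 (adjusted p of 0.0669 and 0.0733). STAR, which brings cholesterol into mitochondria, read 348, 387 and 335 CPM in untreated cells, 405, 446 and 474 with STA9090, 192, 186 and 204 with PIK75 and 213, 222 and 211 with BGT226. It rose with STA9090 (log2 fold change 0.31, adjusted p = 0.0378) and fell with PIK75 (-0.88) and BGT226 (-0.73). The rise was lost without untreated replicates 1 or 3 or STA9090 replicates 2 or 3 (adjusted p from 0.0823 to 0.133), with no filter (0.0787) and with these groups alone (0.268). CYP17A1, the hydroxylase of cortisol and androgen synthesis, read 266, 282 and 241 CPM in untreated cells, 55.6, 51.1 and 53.4 with STA9090+PIK75 and 159, 148 and 140 with STA9090+BGT226 (log2 fold changes -2.3 and -0.82). HSD3B2, a steroid dehydrogenase, fell to 26, 30.2 and 27.1 CPM with STA9090+PIK75 and rose to 113, 106 and 94.4 with STA9090+BGT226, from 45.6, 60.3 and 43.8 (log2 fold changes -0.85 and 1.06). As with SOAT1, the 2 combinations lay on opposite sides of the untreated libraries.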

How the data were processed

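Per the labels' protocols, ribosomal RNA was depleted and stranded paired-end libraries were made from total RNA. The authors deposited expected counts per gene, not normalized. Tools named in the submitters' processing notes are RSEM 1.3.1, STAR 2.7.0f, cutadapt 1.18 and bcl2fastq 2.20, with build hg38. Replicates are biological according to the design text. From there, counts were rounded, and filterByExpr of edgeR 4.0.16 (minimum count 10, total 15) in R 4.3.3 kept 15787 genes, scaled by TMM. All 18 libraries entered a model of 6 group means without covariates (12 residual degrees of freedom), and differences were tested by quasi-likelihood in edgeR. P-values were adjusted by Benjamini-Hochberg over all tested genes within each of 11 comparisons, with a threshold of 0.05. SE was derived from the log2 fold change and the F statistic. The fit was tested on simulated data. Alternatives were RLE, no filter, a stricter filter (1 CPM in 3 libraries), DESeq2 1.42.0, the compared groups alone, the replicate block, omission of the 50 most counted genes, and omission of each library. Members and lists were chosen with earlier results of these data known. All members could be named. From each other list, up to 3 genes with a mean of at least 5 CPM and the smallest adjusted p with BGT226 or STA9090+BGT226 could be named, and the text names some of these.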

Additional observations from a re-analysis of the deposited data

Results flagged for a closer look

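The step on adding STA9090 differed between cells with and without PIK75 for 11 of the 33 genes, by a test of the difference itself. The differences on the log2 scale were -0.57 for HMGCS1, -0.47 for FDPS, -0.65 for LSS, -0.53 for LBR, -0.67 for MSMO1 and -0.5 for EBP among the enzymes of synthesis. They were -0.35 for SREBF2 and -0.58 for INSIG1 in sterol sensing, -0.63 for SOAT1 and -0.55 for LIPE in storage, and -1.03 for ABCA1 in efflux. Calls of 4 of these were lost when single libraries were left out. SREBF2 was lost in 10 of 12 such fits (adjusted p from 0.0513 to 0.135), the exceptions being the fits without untreated replicate 2 and without STA9090 replicate 1. LIPE was lost without untreated replicate 1, STA9090 replicates 2 or 3, PIK75 replicate 3 or STA9090+PIK75 replicates 1 or 3 (0.0533 to 0.086). LBR was lost without untreated replicate 1, PIK75 replicates 1 or 2 or STA9090+PIK75 replicate 1 (0.0583 to 0.0676), and EBP without untreated replicate 1 or STA9090+PIK75 replicate 2 (0.0523 to 0.0563). A fit of the 4 groups alone also ended these 4 calls.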

How the results depend on the processing

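Of 154 calls among the 33 genes, 125 held with each library left out and under every other alternative, and no called change reversed its sign. Genes higher with STA9090 numbered 0 in the reported fit, 1 with no filter, a stricter filter or the replicate block, 2 with DESeq2, and 0 to 1 with libraries left out. For STA9090+BGT226 against BGT226, genes higher numbered 0, 1 with DESeq2 and 3 with the compared groups alone, and genes lower numbered 1, 2 with DESeq2, 2 with the groups alone and 0 with each library left out. For the interaction with PIK75, genes lower numbered 11, 7 with the groups alone and 7 to 13 with libraries left out, and genes higher numbered 0, 1 with no filter and 0 to 1 with libraries left out. Genes higher with BGT226 numbered 2, or 1 to 2 with libraries left out.

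Replicate numbers did not pair the samples, since correlations of deviations in 27 pairs ran from -0.15 to 0.1. With the replicate block, SREBF2 lost its interaction call (adjusted p = 0.0574), while ACAT2 with STA9090 and NPC2 for BGT226 against PIK75 gained one (0.0439 and 0.0487). Over all genes, calls with STA9090 numbered 448, but 769 with no filter, 4 with the groups alone and 116 to 488 with libraries left out. For STA9090+BGT226 against BGT226 they numbered 424, then 827, 1334 and 134 to 242. For the interaction with PIK75 they numbered 1463, and 809 with the groups alone. For that with BGT226 they numbered 1, but 269 with no filter, 35 with DESeq2 and 0 to 6 with libraries left out. The cause of these shifts was not tested. Depth limits the 4 genes with fewer than 1100 counts over all libraries, ABCG1, MYLIP, TM7SF2 and NR1H3.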
